A study of Mus musculus with 65 samples.

Results

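Gene expression was compared between knockin and wild type cerebellum at 18 weeks of age, across all genes with enough counts. The comparison takes the 4 vehicle-treated knockin and the 4 vehicle-treated wild type cerebellum libraries of that age, chosen by the names of the count columns, which is 8 of the 65 libraries of the study. Of 49670 gene IDs in the count table, 19493 passed the filter on low counts and were tested. All mice were C57BL/6J, per the labels. The labels give the genotype of the knockin mice as Atxn1[82Q], an Atxn1 allele with a lengthened CAG repeat, and name neither the number of copies nor the promoter; the controls were wild type. Both groups had received vehicle without an antisense oligonucleotide. The study also sequenced medulla and pons, and knockin mice treated with an oligonucleotide against Atxn1, which enter here only where named. The names of the 8 count columns end in 8 different numbers, 4 of which recur in pons or medulla columns of the same age, but no label says what the numbers stand for, so p-values measure the spread between these libraries.

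Spinocerebellar ataxia type 1 is an inherited disease in which a lengthened glutamine tract in ataxin, the product of Atxn1, leads to loss of coordination. Purkinje cells, the large inhibitory neurons that form the only output of the cerebellar cortex, are among the cells it affects most. They receive excitation from granule cells and from climbing fibres, and convert it into calcium signals through metabotropic glutamate receptors, phospholipase C and the inositol trisphosphate receptor. Ataxin binds the transcriptional repressor Capicua, and it has also been linked to the nuclear receptor ROR alpha, which drives many Purkinje cell genes. Whole cerebellum was sequenced, so fewer cells of a type and less RNA per cell cannot be told apart.

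The libraries held 67.4 to 78.3 M counts in wild type and 76.2 to 96.8 M in knockin. Mitochondrial transcripts took 4.74% to 5.49% of counts. Cerebellar markers were high in every library, with Purkinje cell identity genes summing to at least 6535 CPM (a gene's count relative to the library total, here scaled by TMM factors), whereas the 1 hindbrain Hox gene that passed the filter, Hoxb2, stayed at or below 0.324 CPM. Xist, the RNA of the inactive X chromosome, was at 1060 to 1250 CPM in wild type replicate 3 and knockin replicates 1 and 2, and at or below 1.21 CPM in the other 5 libraries, which held 79.8 to 102 CPM of the Y-linked Ddx3y. The groups therefore held unequal numbers of female mice. The same 3 libraries were low in choroid plexus genes, whose summed level ran from 904 to 10030 CPM in wild type and from 1391 to 7099 CPM in knockin.

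Atxn1 (ENSMUSG00000046876, chromosome 13, 45549755 to 45965008 on GRCm38, minus strand), the gene that carries the repeat, was measured at 47.4, 50.4, 57 and 46.1 CPM in wild type replicates 1 to 4 and at 63.1, 65.1, 59.2 and 58.5 CPM in knockin replicates 1 to 4. Every knockin library stood above every wild type library, by the narrow margin of wild type replicate 3. The difference of the means was 11.2 CPM (p = 0.0286 in an exact permutation test, two-sided, which is the lowest value possible with 4 libraries a group). edgeR's quasi-likelihood test, which models the counts of all genes together, gave a log2 difference of 0.29 ± 0.06 (SE, adjusted p = 0.00948). The call was lost when the 4 libraries treated with the oligonucleotide against Atxn1 shared the fit (adjusted p = 0.618), and the cause was not tested. The counts do not separate the repeat-bearing transcript from the normal one.

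At an adjusted p under 0.05, 3161 of the 19493 genes differed between the genotypes (16.2%), of which 1458 were higher in knockin (7.48%) and 1703 were lower (8.74%). The groups did not overlap for 4101 genes (21%). Most differences were small, with a median absolute log2 difference of 0.26 among genes called higher and 0.32 among those called lower. A change of at least 2-fold was reached by 100 called genes that rose and 131 that fell, and 13 and 19 reached 4-fold. With all 12 cerebellum libraries in 1 fit, 133 genes were called higher and 419 lower. Lists of genes are described below by how many members passed the main test, to be read beside these shares of all genes. The lists were written with earlier results of these data known, so such counts describe these libraries and test nothing. Their medians are to be read beside the median log2 difference of 0.01 over all genes tested. The plot of list members shows these values for each list.

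**Figure D1:**
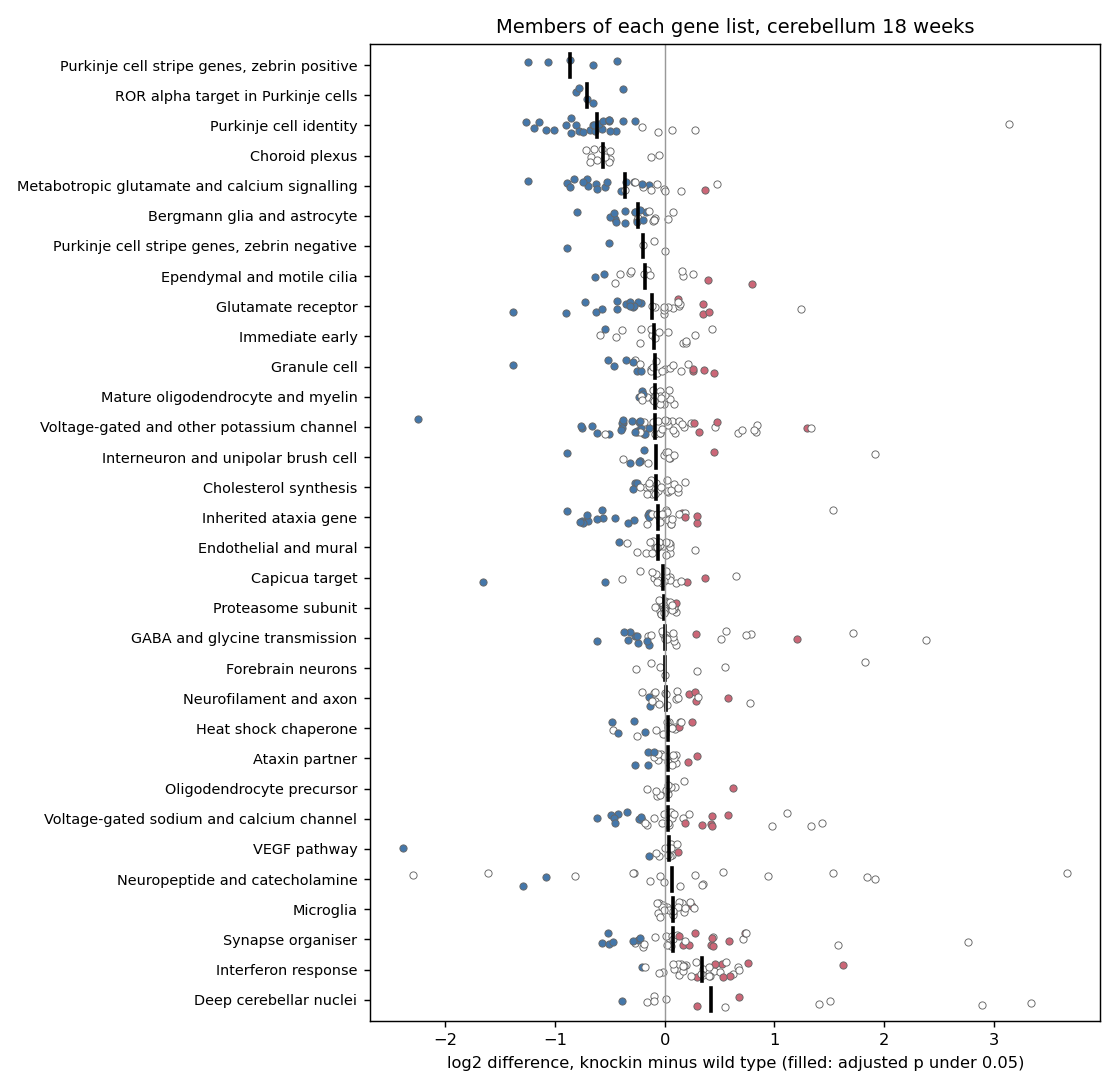
Log2 difference between knockin and wild type cerebellum (x axis) for each member of the gene lists (y axis, ordered by median). Each point is 1 gene, filled blue or red where it was called lower or higher at an adjusted p under 0.05, and the bar is the list's median. Zebrin-positive, ROR alpha target and Purkinje cell identity genes lie at the top with medians of -0.86, -0.71 and -0.62, and zebrin-negative stripe genes lie lower in the order at -0.20.

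Among named genes averaging 1 or more in log2 CPM, called in both the 8-library and the 12-library fit and without overlap, the largest fall was in Myo15 (chromosome 11, 60469339 to 60528369), an unconventional myosin best known from the hair cells of the inner ear, which was at 7.01, 8.13, 5.76 and 6.65 CPM in wild type and at 0.513, 0.496, 0.662 and 0.861 CPM in knockin. It fell 10.9-fold (log2 difference -3.45 ± 0.18, SE, adjusted p = 2.42e-07), with a wide gap between the groups. Car9 (chromosome 4, 43506966 to 43513729), a carbonic anhydrase of the cell surface that is induced by low oxygen, was at 6.88 to 8.56 CPM in wild type and 1.24 to 1.69 CPM in knockin, a log2 difference of -2.38 ± 0.12 (adjusted p = 1.7e-07). Falls of at least 4-fold were also measured for Muc3a, a mucin (-2.08), Ccdc63, a coiled-coil protein known from sperm tails (-2.06), and Mdfi, an inhibitor of muscle-type transcription factors (-2.04). The remaining members of the 12 largest falls chosen in this way were the long noncoding RNAs Plekhd1os and Mirt1, Unc13d, which primes secretory vesicles, Ly6g6e, the cytokine receptor subunit Il20rb, the kinase Tssk5 and the phosphatase Dusp5, at log2 differences of -1.87 to -1.65.

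Purkinje cell identity genes, on a list written with earlier results of these data known, fell together. Of 30 genes on that list, 25 were called lower and 0 higher (16.2% of all genes tested were called), and their median log2 difference was -0.62. Their summed level was 11050 to 11840 CPM in wild type and 6535 to 7641 CPM in knockin. With all 12 libraries in the fit 14 were called lower and 0 higher, and in the 5 libraries low in Xist 23 were lower. Calb1 (chromosome 4, 15881264 to 15908064), the calcium buffer calbindin and the usual stain for Purkinje cells, was at 1280, 1281, 1278 and 1191 CPM in wild type and at 823, 783, 835 and 691 CPM in knockin. The groups stood well apart, and the log2 difference was -0.68 ± 0.06 (SE, adjusted p = 1.21e-05).

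Pcp2 (chromosome 8, 3623371 to 3625545), a modulator of G protein signalling made almost exclusively by Purkinje cells and retinal bipolar cells, was at 385, 435, 401 and 395 CPM in wild type against 229, 245, 242 and 209 CPM in knockin (log2 difference -0.80, adjusted p = 1.85e-06). Its neighbour on the list Pcp4, a small calmodulin-binding protein, fell by 0.78 on the log2 scale (adjusted p = 7.66e-06). Neither passed with the oligonucleotide-treated libraries in the fit (adjusted p = 0.0604 and 0.159). The deepest fall of the list was in Fam107b, from 185 to 198 CPM in wild type to 75.9 to 85.7 CPM in knockin, and it was the gene of smallest p in the whole comparison (log2 difference -1.27 ± 0.04, adjusted p = 4.2e-08). Itpka, a kinase that acts on inositol trisphosphate (-1.08), the transcription factor Lhx5 (-0.85) and Dner, a Notch ligand on Purkinje cell dendrites (-0.64), fell as well. The list's 5 members that were not called were Bcl11a, Dab1, Ebf1, Foxp2 and Nrgn, at log2 differences from -0.21 to 3.14; they are named here because they make up the remainder, after their values were seen.

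Genes of the metabotropic glutamate and calcium signalling cascade fell at several successive steps. Of 26 members, 16 were called lower and 1 higher, with a median log2 difference of -0.36 (8 lower and 0 higher with all 12 libraries). Plcb3, a phospholipase C that makes inositol trisphosphate, was at 89, 79, 82.4 and 84 CPM in wild type and at 34.2, 31.3, 37.9 and 37.3 CPM in knockin. This was the largest fall of the cascade, by 1.25 on the log2 scale (adjusted p = 1.75e-07).

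Itpr1 (chromosome 6, 108213096 to 108551109), the channel through which inositol trisphosphate releases stored calcium, was at 4333, 3893, 4651 and 4288 CPM in wild type and at 2830, 2139, 3093 and 2454 CPM in knockin. It was among the most abundant of these transcripts in both genotypes, and it fell by 0.71 on the log2 scale (adjusted p = 0.00179, 0.0662 with all 12 libraries). Inpp5a, which removes inositol trisphosphate (-0.82), and Dgkz, which removes the second product of phospholipase C, diacylglycerol (-0.75), fell to a like extent. The plot of Purkinje cell and calcium signalling genes shows each library.

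**Figure D2:**
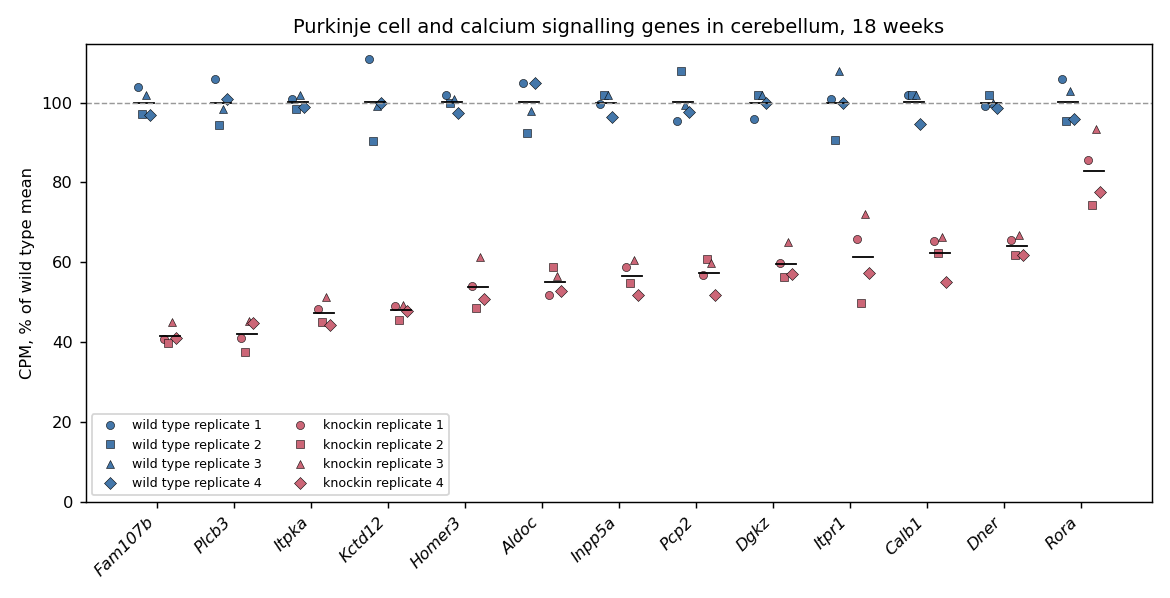
Level of 13 Purkinje cell and calcium signalling genes (x axis) in each of the 8 libraries, as a percentage of the wild type mean CPM (y axis, starting at 0). Blue points are wild type, red points knockin, point shapes are replicate numbers and bars are group means. Fam107b and Plcb3 stood at 41.6% and 42.1% of wild type on average, and Rora at 82.8%.

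Purkinje cells fall into stripes that express zebrin, the product of Aldoc, or lack it. Of the 5 genes listed for zebrin-positive stripes, 5 were called lower (median log2 difference -0.86), and of the 5 listed for zebrin-negative stripes, 2 were (median -0.20). Aldoc, an aldolase that astrocytes also make, was at 2247, 1975, 2095 and 2241 CPM in wild type and at 1109, 1258, 1211 and 1127 CPM in knockin (log2 difference -0.86 ± 0.06, SE, adjusted p = 1.37e-06). Kctd12, an auxiliary subunit of GABA-B receptors, went from 251 to 308 CPM in wild type to 127 to 137 CPM in knockin (-1.06, adjusted p = 2.42e-07). The zebrin-positive list also holds Plcb3 and the glutamate transporter Slc1a6 (-0.65), and the zebrin-negative list holds the transcription factor Ebf2 (-0.50). The difference between the lists was not tested.

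Rora, which encodes ROR alpha, was at 410, 369, 397 and 372 CPM in wild type and 331, 288, 361 and 301 CPM in knockin, a fall of 0.27 on the log2 scale (adjusted p = 0.0182, 0.457 with all 12 libraries). The 5 genes listed as its targets in Purkinje cells, Pcp2, Pcp4, Itpr1, Slc1a6 and Shh, were all called lower (median log2 difference -0.71), while 1 was called with all 12 libraries. All but Itpr1 also stand on the Purkinje cell identity list. Stretches upstream of the start sites are shown because these genes moved together and ROR alpha binds DNA at the letters AGGTCA preceded by bases rich in A and T. RefSeq promoters on GRCm38.p6 were at hand for 19 of the 30 Purkinje cell identity genes, and 7 of these held AGGTCA on either strand within 250 bases before a start (36.8%), against 1745 of 13054 genes tested (13.4%). The fuller letters TAGGTCA, which contain the former and were searched first, were in 0 of the 19 and in 1.92% of all. The shares of genes called lower and called higher with AGGTCA were 13.9% and 10.8%, and among other lists the share was 38.5% for microglia genes (5 of 13) and 32% for proteasome genes (8 of 25). Of the 5 ROR alpha targets 3 had a promoter, and 2 of these, Pcp2 and Pcp4, held the letters. The search did not require bases rich in A and T before these letters. In the stretches shown, the base just before them, read on their own strand, is C or A. The letters are in capitals below, as TGACCT where they lie on the strand opposite to the gene, and a match describes the sequence and does not show binding.
Pcp2, chr8:3625543-3625570, minus strand: aaggccttctcAGGTCAgagaccaggag
Pcp4, chr16:96467431-96467458, plus strand: ccttgctattgTGACCTgatcagccatg
Dner, chr1:84696316-84696343, minus strand: ttggatgtgcaAGGTCAggtccttgaga
Rgs8, chr1:153665526-153665553, plus strand: ggatgcatgccAGGTCAgctctgcttgg
Rgs8, a regulator that shortens G protein signals in Purkinje cell dendrites, was at 1575 to 1721 CPM in wild type and 616 to 854 CPM in knockin (log2 difference -1.14, adjusted p = 1.07e-05). It was chosen for display after its values were seen.

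Genes whose mutations cause other inherited ataxias in people or mice overlapped much of this group. Of 37 tested, 15 were called lower and 5 higher, with a median log2 difference of -0.06, so the list holds a falling group beside many genes near 0. With all 12 libraries 8 were lower and 0 higher. Car8, which binds and restrains the inositol trisphosphate receptor, was at 2129, 2020, 2239 and 1936 CPM in wild type and at 1346, 1147, 1367 and 1124 CPM in knockin (log2 difference -0.74, adjusted p = 3.6e-05). Plekhg4, a guanine nucleotide exchange factor, fell by 0.77 on the log2 scale, and Itpr1, Cacna1g and Slc1a3, described with their own groups, were also among the 15 that fell.

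Granule cell genes split. Of 24 members, 7 were called lower and 4 higher, and the median log2 difference was -0.09 (3 lower and 0 higher with all 12 libraries). Grm4, the metabotropic receptor that dampens transmitter release from parallel fibres, was at 359, 350, 346 and 352 CPM in wild type and at 143, 129, 147 and 120 CPM in knockin. The fall was 2.61-fold (log2 difference -1.38 ± 0.06, SE, adjusted p = 8.21e-08) and the groups were far apart. Cbln1, which granule cells secrete to hold their synapses to Purkinje cells, was at 707 to 748 CPM in wild type and 434 to 544 CPM in knockin (-0.52, adjusted p = 0.000272). The transcription factors Neurod2 (-0.36) and Zic2 (-0.25) fell too. Calb2, the calcium buffer calretinin, went the other way, from 376, 361, 321 and 331 CPM to 511, 488, 465 and 429 CPM (0.45, adjusted p = 0.000521). Calb2 is also made by unipolar brush cells, whose transcription factor Eomes fell from 9.39 to 11.4 CPM to 4.15 to 8.05 CPM (-0.89, adjusted p = 0.0118).

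Among 29 glutamate receptor genes and their scaffolds, 14 were called lower and 4 higher (median -0.11, 3 and 0 with all 12 libraries). Homer3, a scaffold that ties metabotropic glutamate receptors to the inositol trisphosphate receptor, fell from 447 to 468 CPM to 223 to 281 CPM (-0.90, adjusted p = 2.23e-06), and Grik1 (-0.62) and Gria1 (-0.44), a kainate and an AMPA receptor subunit, fell by less. Synapse organisers moved in both directions, with 7 of 33 lower and 9 higher (median 0.08, 3 and 1 with all 12 libraries). The neuronal pentraxin Nptx1 and the receptor Nptxr, which gather AMPA receptors, fell by 0.51 and 0.47 on the log2 scale, while the adhesion molecules Slitrk3 (0.73, adjusted p = 8.06e-06) and Slitrk2 (0.44, adjusted p = 0.000108) rose.

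Inhibitory transmission showed 9 of 29 genes lower and 2 higher (median 0.01, 3 and 1 with all 12 libraries). Both subunits of the GABA-B receptor fell: Gabbr2 from 274 to 308 CPM to 175 to 198 CPM (log2 difference -0.62, adjusted p = 5.11e-06), and Gabbr1 from 711 to 751 CPM to 538 to 581 CPM (-0.37, adjusted p = 6.68e-05). The vesicular transporter of GABA and glycine, Slc32a1 (-0.27), the glial glycine transporter Slc6a9 (-0.31) and the receptor subunit Gabra2 (-0.33) followed at smaller sizes. Of 16 interneuron and unipolar brush cell genes 5 were lower and 1 higher (median -0.08), and among these Kit, a receptor of molecular layer interneurons, fell by 0.22 on the log2 scale.

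Potassium channel genes were called lower in 20 of 51 cases and higher in 4 (median log2 difference -0.09, 8 and 1 with all 12 libraries). Kcnh3 fell most, from 1.43 to 2.11 CPM to 0.273 to 0.506 CPM (-2.25 ± 0.23, SE, adjusted p = 4.37e-05), at a low level. Kcna6 (-0.51), Kcnip4 (-0.66) and Kcnip1 (-0.62), a channel and regulators of the A-type current, fell at higher levels. Kcnb2, a delayed rectifier, rose from 5.85, 5.58, 10.2 and 6.22 CPM to 20.5, 19.9, 13.4 and 14.9 CPM (1.30 ± 0.23, adjusted p = 0.00833). Of 33 sodium and calcium channel genes 8 were lower and 6 higher (median 0.03, 3 and 0 with all 12 libraries). Cacna1g, the T-type channel of Purkinje and nuclear cells, was at 340, 327, 364 and 362 CPM in wild type and 235, 204, 258 and 215 CPM in knockin (-0.61, adjusted p = 0.000141). The calcium channel subunit Cacnb2 fell (-0.46), whereas the N-type channel Cacna1b (0.43) and the accessory subunit Cacna2d1 (0.57, from 54.9 to 64 CPM to 77.3 to 92 CPM, adjusted p = 7.52e-05) rose. With all 12 libraries in the fit neither of these rises was called (adjusted p = 0.299 and 0.0757).

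Bergmann glia, the astrocytes whose fibres enclose Purkinje cell dendrites, were marked by falling genes. Of 24 Bergmann glia and astrocyte genes 15 were called lower and 0 higher, with a median log2 difference of -0.24. The list's summed level was 9152 to 9711 CPM in wild type and 7736 to 8003 CPM in knockin, and 2 of its genes were called with all 12 libraries. Slc1a3, the glutamate transporter GLAST, was at 1677, 1482, 1554 and 1468 CPM in wild type and at 1149, 1062, 1221 and 1074 CPM in knockin (-0.46 ± 0.06, SE, adjusted p = 0.000239). Gdf10, a growth factor relative that marks Bergmann glia, fell from 173 to 222 CPM to 97.5 to 124 CPM (-0.80, adjusted p = 0.000449). Hopx (-0.50), Timp4 (-0.46) and Ntsr2 (-0.36) fell as well. Gfap, the intermediate filament of reactive astrocytes, was at 210, 212, 221 and 239 CPM in wild type and at 189, 237, 171 and 234 CPM in knockin, with overlapping groups (-0.09, adjusted p = 0.659).

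In other glia and vessels the shares called were below or near the 16.2% of all genes. Among 20 microglia genes 1 was higher and 0 lower (median log2 difference 0.07), namely P2ry12, a receptor of resting microglia (0.25, adjusted p = 0.035), and Aif1, which encodes IBA1, was not called (0.18, adjusted p = 0.488). Of 22 myelin genes 3 were lower (median -0.09), with 0 to 6 lower when 1 library was left out, 0 without wild type replicate 4 or knockin replicate 1 or 3 and 6 without knockin replicate 4. Of 12 oligodendrocyte precursor genes 1 was higher, and of 21 endothelial and mural genes 1 was lower. None of 12 choroid plexus genes was called by edgeR (0 also at an unadjusted p under 0.05, and 0 with DESeq2), and all had log2 differences below 0 (median -0.56), with the lowest levels in the libraries high in Xist: Ttr was at 3779, 6140, 432 and 6491 CPM in wild type and at 729, 1441, 4176 and 4435 CPM in knockin. Among 12 genes listed for the VEGF pathway and low oxygen, Car9 and Vegfb were lower and Epas1 higher (25% called). Vegfa, the growth factor itself, was at 91.3 to 103 CPM in wild type and 97 to 105 CPM in knockin (0.07, adjusted p = 0.343).

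The largest rises by the same rule were led by Fam163b (chromosome 2, 27110380 to 27142491), a membrane protein of neurons, at 7.39, 8.77, 9.15 and 9.16 CPM in wild type and 42.3, 44.5, 32.5 and 33.7 CPM in knockin. It rose 4.44-fold (log2 difference 2.15 ± 0.12, SE, adjusted p = 2.26e-06), with no overlap. Slc44a5, a choline transporter-like protein, was even within both groups, at 5.46 to 6.74 CPM and 16.2 to 17.5 CPM (1.46 ± 0.07, adjusted p = 1.7e-07). Onecut2, a neuronal transcription factor, rose by 1.41 and Rprm, a brake on cell division, by 1.33. Plppr1, which promotes neurite growth, was at or below 1.38 CPM in wild type and at 3.92, 3.58, 3.23 and 5.9 CPM in knockin (1.94, adjusted p = 8.8e-05), and the copine Cpne4 at 0.915 to 2.17 CPM and 4.52, 4.68, 3.97 and 7.06 CPM (1.75, adjusted p = 0.00149). The peptide transporter Slc15a2, the noncoding RNA Miat and the protocadherin Pcdh8 were also among the 12 largest rises, at 1.58, 1.56 and 1.40. Miat was lost from the calls in 6 of the 8 fits that left out 1 library, and Slc15a2 in 6.

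Several of these rises varied between knockin libraries together with genes of excitatory neurons that are not typical of cerebellar cortex. Slc17a6, the vesicular glutamate transporter of brainstem, midbrain, thalamus and the cerebellar nuclei, was at 20, 9.85, 17.5 and 21.7 CPM in wild type and at 39.7, 35.9, 24.4 and 96.7 CPM in knockin, highest in replicate 4 (log2 difference 1.51, adjusted p = 0.105; it was chosen after its values were seen). Lhx9, a transcription factor of cerebellar nuclei, midbrain and thalamus, had the same order, at 4.39, 4.16, 0.961 and 15.99 CPM in knockin against 0.444 to 1.19 CPM in wild type, and replicate 3 lay within the wild type range. Nrgn, a calmodulin-binding protein abundant in forebrain neurons, was at 17.5, 11.8, 1.69 and 46.7 CPM in knockin and 1.54 to 2.71 CPM in wild type. Nrgn also stands on the Purkinje cell identity list, so its place on a list does not settle its cell of origin here. Neither Lhx9 nor Nrgn was called (adjusted p = 0.0805 and 0.0811). Of the 12 cerebellar nuclei genes 2 were called higher, among them Meis1 (0.29), and 1 lower, Kcnc1 (-0.38), with a median of 0.42. The share called was 25%, against 16.2% of all genes tested. The count of 2 was 4 without knockin replicate 3, 6 without robust estimation and 7 with DESeq2, and 0 with all 12 libraries.

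With the log2 level of Slc17a6 as a term in the fit, a choice made after seeing the data, 381 genes were called higher and 692 lower. That fit kept 365 of the 1458 rises and 647 of the 1703 falls. Of the Purkinje cell identity genes 19 were still called lower, and of the metabotropic glutamate and calcium genes 11. Fam163b (adjusted p = 0.000293), Slc44a5 (2.53e-05) and Plppr1 (0.00404) kept their calls, and Miat (0.195), Kcnb2 (0.151), Pcdh8 (0.0728) and Slc15a2 (0.215) did not. Slc17a6 was at or above 24.4 CPM in knockin and at or below 21.7 CPM in wild type. The term therefore overlaps with genotype, and a lost call does not show that a gene varied with Slc17a6. Slc15a2 was even in knockin (53.2 ± 2.56 CPM) and uneven in wild type (17.8 ± 7.49 CPM, SD, n = 4, joint scaling with medulla). The part of neurons from outside the cerebellar cortex in these values was not tested. The plot of genes at higher level in knockin sets the even rises beside the uneven ones.

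**Figure D3:**
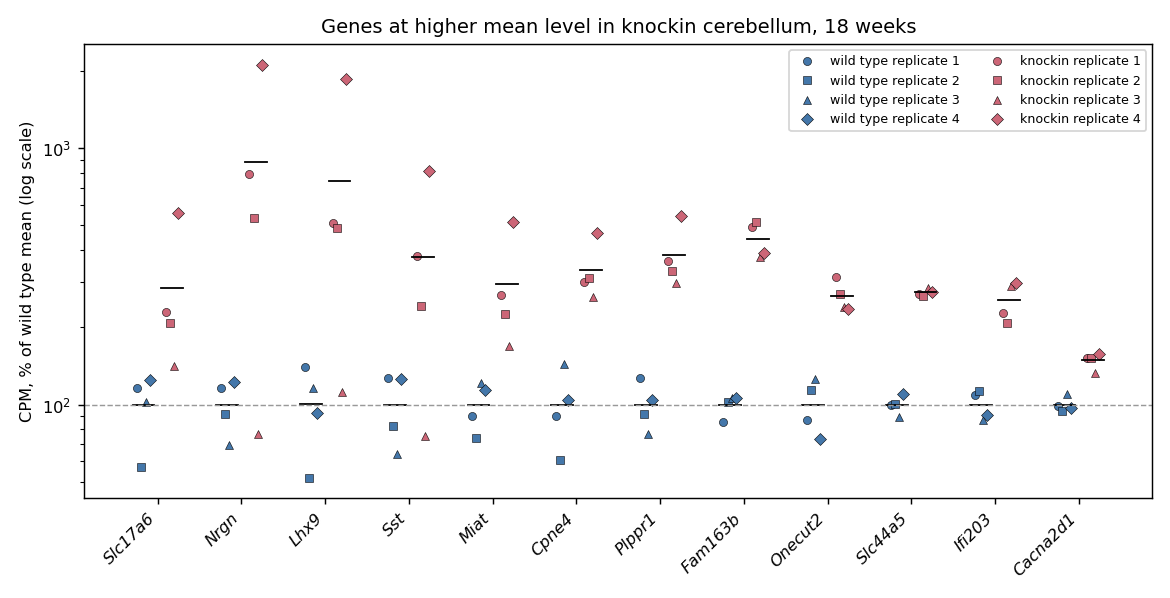
Level of 12 genes with a higher mean in knockin (x axis) in each of the 8 libraries, as a percentage of the wild type mean CPM (y axis, log scale). Blue points are wild type, red points knockin, shapes are replicate numbers and bars are group means. Slc17a6, Nrgn and Lhx9 spread widely in knockin with replicate 4 highest, up to 2120% for Nrgn, while Slc44a5 stayed between 265% and 286%.

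Of 34 genes of the interferon response, 7 were called higher and 1 lower (median log2 difference 0.34), and 2 were higher with all 12 libraries. The share called in the main fit was 23.5%, against 16.2% of all genes tested. Cmpk2, which supplies nucleotides in mitochondria, was at 15, 15.6, 17.5 and 15.8 CPM in wild type and at 21.3, 21.5, 22.1 and 23.1 CPM in knockin (0.46, adjusted p = 0.000227). Xaf1 (0.53, adjusted p = 0.00273) rose, and Stat2, a signal transducer of the pathway, fell (-0.20, adjusted p = 0.0147). Wild type replicate 3 stood apart, with the list summing to 370 CPM there against 316 to 321 CPM in the other wild type libraries and 348 to 385 CPM in knockin, and without it 13 members were called higher, against 4 to 6 without any other single library (4 without wild type replicate 1, 2 or 4 or knockin replicate 1 or 2). The largest rise of the list was in Mndal (chromosome 1, 173849126 to 173942491), a DNA sensor of the interferon-inducible PYHIN family, at 3.25, 3.2, 2.12 and 2.32 CPM in wild type and 6.41, 7.86, 9.55 and 9.81 CPM in knockin (1.62 ± 0.18, SE, adjusted p = 0.000107). Ifi203 of the same family, whose annotated span overlaps that of Mndal, rose by 1.36 (adjusted p = 4.05e-05), and counts of these 2 near-identical neighbours are uncertain. Of the 10 tested genes in this cluster, chromosome 1 from 173350879 to 173942672, only these 2 were called.

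Genes known as targets that Capicua represses did not move as a group. Of 20, 2 were called lower and 2 higher (20% called, against 16.2% of all genes tested), and the median log2 difference was -0.02. Dusp5, which switches off ERK in the nucleus, was at 87.9, 82.9, 84 and 70.6 CPM in wild type and at 24.8, 31.5, 25.2 and 21.9 CPM in knockin, a fall of 1.65 on the log2 scale (adjusted p = 2.72e-05) and the largest change of the list. Ier3, an early growth-response gene, fell by 0.54, and the cyclin Ccnd1 rose by 0.37 (adjusted p = 0.00035) and the ERK inhibitor Spred3 by 0.21 (adjusted p = 0.0319). The letters TGAATGAA, which Capicua binds, were found upstream of 1 of the 13 listed genes with a RefSeq promoter, against 0.927% of all genes tested, and are shown for that gene in capitals.
Spred3, chr7:29168648-29168668, minus strand: cttgatttttgTGAATGAAat
Among 19 genes for ataxin and the proteins it binds, Cic, which encodes Capicua, fell from 193 to 197 CPM to 164 to 186 CPM (-0.16, adjusted p = 0.0207), and the histone deacetylase Hdac3 rose by 0.21. Atxn1l, the close relative of Atxn1, was not called (0.06, adjusted p = 0.507).

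Signalling peptides and stress genes gave single changes. In the lists of this paragraph 3.23% to 30% of members were called, against 16.2% of all genes tested. Of 20 neuropeptide and catecholamine genes 2 were called, both lower (median log2 difference 0.07). Cck, the peptide cholecystokinin, was at 31.2, 36.3, 37.6 and 30.5 CPM in wild type and at 17.2, 14.5, 15.7 and 16.8 CPM in knockin (-1.08 ± 0.08, SE, adjusted p = 3.58e-06), and Th, which makes catecholamines and is also used by a subset of Purkinje cells, fell from 8.45 to 14 CPM to 3.72 to 5.52 CPM (-1.29, adjusted p = 0.00156). Of 21 heat shock chaperones 4 were lower and 2 higher (median 0.03), led by Bag3, a cochaperone of protein aggregate clearance (-0.43, adjusted p = 0.000237). Of 31 proteasome subunits 1 was higher and 0 lower (median -0.002), and of 24 cholesterol synthesis genes 3 were lower (median -0.08), or 10 without knockin replicate 4. Of 20 neurofilament and axon genes 4 were higher and 2 lower (median 0.02), among them Uchl1, a ubiquitin hydrolase of neurons that went from 94.5 to 116 CPM to 136 to 183 CPM (0.58, adjusted p = 0.00395).

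The neighbourhood of the knockin allele on chromosome 13 held called genes at about the share of all genes. Within 10 Mb of Atxn1, leaving Atxn1 out, 25 of 154 tested genes were called (16.2%), and within 5 Mb 14 of 73 (19.2%), against 16.2% of all genes. Hrh2, a histamine receptor, had the largest change among the called genes named there, at -1.07 (adjusted p = 0.000122), and Fgd3 followed at -0.62. Chromosome X differed from the others in direction. Of its 662 tested genes 113 were called higher (17.1%) and 21 lower (3.17%), while on the autosomes 7.16% were higher and 8.97% lower, and the median log2 difference was 0.09 on X and 0.01 on autosomes.

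The skew on X was also present without the libraries high in Xist. In a fit of the 5 libraries low in Xist, 51 genes on X were higher (7.7%) and 13 lower (1.96%), against 2.72% and 5.73% of autosomal genes. With all 12 libraries the counts on X were 15 (2.27%) and 2 (0.302%), against 0.625% and 2.21% on autosomes. With the term for Slc17a6 they were 26 (3.93%) and 10 (1.51%), against 1.88% and 3.63% on autosomes. Gprasp2, a sorting protein for receptors taken up from the cell surface, was at 133, 125, 131 and 133 CPM in wild type and at 182, 183, 175 and 211 CPM in knockin (log2 difference 0.52, adjusted p = 3.95e-05; 0.55 in the libraries low in Xist). Armcx3, a mitochondrial transport protein of neurons, was within 82.2 to 82.8 CPM in wild type and 95.9 to 98.3 CPM in knockin (0.24, adjusted p = 0.000126). Both were chosen after their values were seen. The part of the sex of the mice in this skew was measured only by the fit of low-Xist libraries above.

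**Figure D4:**
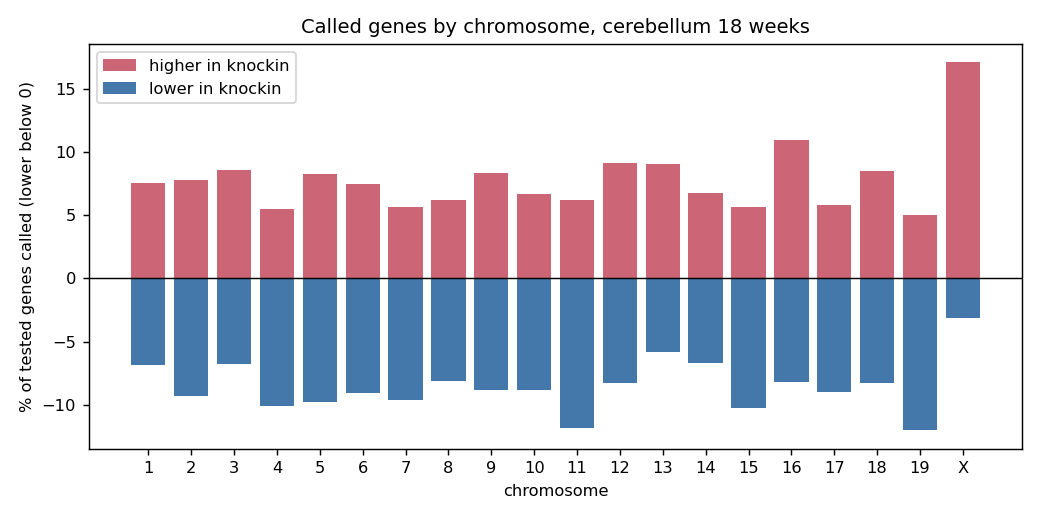
Share of tested genes on each chromosome (x axis) called higher (red, above 0) or lower (blue, drawn below 0) in knockin cerebellum (y axis, percent). On X 17.1% of genes were higher and 3.17% lower.

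The genotype difference was then set against that of pons and medulla at 28 weeks, from vehicle-treated libraries of the same study (4 against 4 in pons, 8 against 8 in medulla). Tissue and age cannot be told apart in this contrast, because the pons and medulla libraries chosen were older than the cerebellum libraries. The study also holds vehicle-treated pons and medulla libraries of both genotypes at the age of the cerebellum libraries. Those age-matched libraries did not enter the contrast, so a comparison of tissues at equal age was not made. A test of the interaction in edgeR called 1313 of 20929 genes against pons (6.27%) and 1125 of 21544 against medulla (5.22%). Against pons 651 genes had the more positive difference in cerebellum and 662 the more negative, and against medulla 613 and 512. Of the 3161 genes called in cerebellum, 817 differed from pons and 663 from medulla. Both tests use the same cerebellum libraries, so they are not independent of each other. The numbers that end the names of the pons columns also recur in medulla columns of the same age.

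Some falls in Purkinje cell genes were steeper in cerebellum than in the brainstem, and others were not told apart. Of 30 Purkinje cell identity genes 13 had a more negative difference than in pons and 0 a more positive one, and against medulla 9 and 2 did. Of 26 metabotropic glutamate and calcium genes 12 were more negative and 0 more positive against pons, and 10 and 1 against medulla. The medians of the first list were -0.62 in cerebellum, -0.10 in pons and -0.10 in medulla. For Calb1, Pcp2, Pcp4 and Car8 the interaction was not called in either test. Pcp2 and Car8 were low in wild type brainstem, at 2.17 and 25.2 CPM in pons and 4.80 and 33.0 CPM in medulla. Their interactions had SEs of 0.54 and 0.31 against pons and 1.06 and 0.68 against medulla. For these genes the missing call therefore does not show a like fall in the brainstem. Calb1 and Pcp4 were also called lower in both other regions. Their log2 differences were -0.41 (adjusted p = 0.00223) and -0.60 (adjusted p = 7.39e-05) in pons. In medulla they were -0.81 (adjusted p = 0.00765) and -0.87 (adjusted p = 3.65e-05). Among called interactions of the genes called in cerebellum and named above, that of Myo15 was the most negative in both tests. It was -3.38 ± 0.23 against pons (SE, adjusted p = 3.31e-07) and -3.36 ± 0.30 against medulla (adjusted p = 1.5e-07). The level of Myo15 in pons was 1.49 ± 0.0338 CPM in wild type and 1.42 ± 0.186 CPM in knockin (SD, n = 4). Grm4 fell in all 3 regions, by more in cerebellum (interaction -0.94 against pons and -0.79 against medulla). Slc1a3 fell in cerebellum and was not called in the others, with log2 differences of 0.01 in pons and 0.04 in medulla (interaction -0.48, adjusted p = 0.00111, and -0.50, adjusted p = 0.00462). The list it belongs to did not follow it: of 24 Bergmann glia and astrocyte genes 12 were lower in pons and 14 in medulla, and 7 and 8 had the more positive difference in cerebellum against 2 and 2 with the more negative one. Over all genes 7.19% were called lower in pons and 9.56% in medulla, and 4.93% and 9.49% higher.

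Myelin and cholesterol synthesis genes included members with a smaller fall in cerebellum than in the brainstem. Of 22 myelin genes 16 were lower in pons and 19 in medulla, and 9 and 7 of them differed from cerebellum, Fa2h, which makes myelin lipids, by 0.60 against pons (adjusted p = 0.00683) and 0.42 against medulla (adjusted p = 0.0169). Of 24 cholesterol synthesis genes 18 were lower in pons and 17 in medulla, and 12 and 2 had a more positive difference in cerebellum, among them Idi1 (0.44 against pons, adjusted p = 0.0106). Vegfa fell in pons (-0.31) and differed there from cerebellum by 0.36 (adjusted p = 0.00761). Interferon genes showed no one-sided contrast: they were higher in 16 of 35 cases in pons and in 24 in medulla, and 2 and 2 had a more positive and 1 and 3 a more negative difference in cerebellum. Calb2 moved in opposite directions, up in cerebellum and down in pons (-0.47) and medulla (-0.96), with interactions of 0.91 (adjusted p = 1.01e-05) and 1.40 (adjusted p = 1.47e-06). Fam163b rose in cerebellum, was not called in pons (0.06) and fell in medulla (-0.31, adjusted p = 0.0499), with interactions of 2.08 and 2.45. Its mean in knockin cerebellum, 38.2 CPM, was near the wild type means of 39.7 CPM in pons and 43.7 CPM in medulla (each in the joint scaling of its fit), against 8.62 CPM in wild type cerebellum. The plot of list medians by region shows these contrasts.

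**Figure D5:**
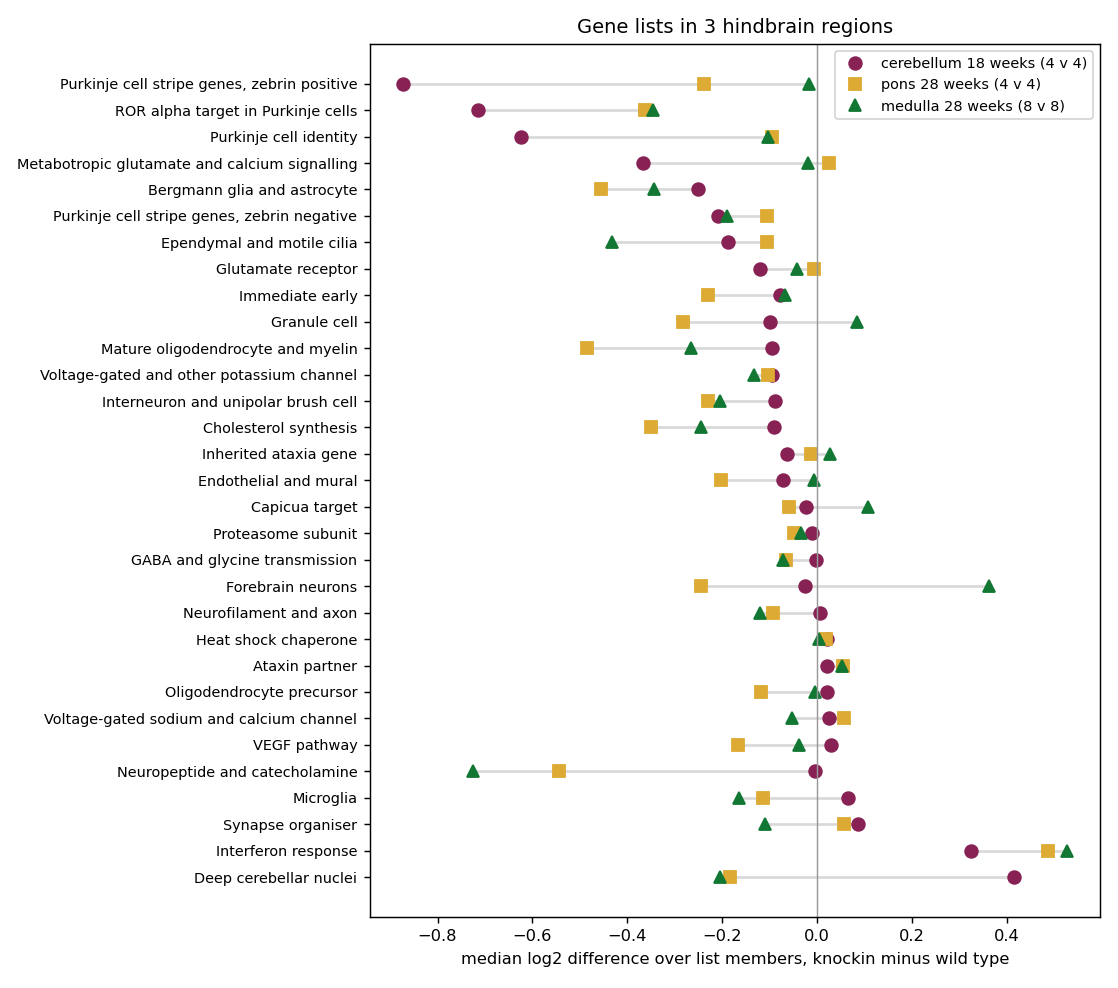
Median log2 difference between knockin and wild type over the members of each gene list (x axis) in cerebellum at 18 weeks (circles), pons at 28 weeks (squares) and medulla at 28 weeks (triangles). Purkinje cell identity genes lie farther left in cerebellum (-0.62, against -0.10 in pons and in medulla), and myelin, cholesterol and astrocyte lists lie farther left in the brainstem.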

How the data were processed

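The submitters' processing notes name CASAVA 1.8, HISAT2 2.0.2, featureCounts, Subread, DESeq2 1.14.1, R 3.3.3 and the build GRCm38, and per the labels' protocols the libraries were TruSeq stranded RNA libraries. The values are read counts per gene as the authors deposited them, in 1 table of 65 libraries with 0 columns left out. How strand and read pairs entered the counting is not stated in the sources used here. Of the counts from 1 to 20, 73.4% to 76.8% were even, an excess that counting both mates of each pair would give; the printed totals may then exceed the number of fragments. GENCODE vM21 gave symbols and positions for 49411 of 49670 IDs, and the rest held 0.039% of counts.

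The 8 libraries were fitted with edgeR 4.0.16 (R 4.3.3, limma 3.58.1) after filterByExpr with a minimum count of 10 and TMM scaling, by the robust quasi-likelihood test. Adjusted p-values follow Benjamini and Hochberg across the 19493 genes, and called means below 0.05. CPM are TMM-scaled. The oligonucleotide-treated libraries were kept for an alternative fit of all 12. Atxn1 was also compared by an exact permutation test. Interactions used joint models, with batch as a term for medulla. Other alternatives were DESeq2 1.42.0, its size factors, no filter, no robust estimation, a replicate block, leaving out each library, and, added after seeing the data, terms for Xist above 100 CPM or for Slc17a6 and a fit of low-Xist libraries. The scripts were tested on simulated counts.

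The comparison and the 34 gene lists were chosen with earlier results of these data known. Named genes come from the 12 largest rises and falls called in both the 8-library and 12-library fits (average log2 CPM of at least 1, groups not overlapping), up to 5 called members per list (2 where none was called), the 6 largest interactions per direction, called genes within 10 Mb of Atxn1 and a set of fixed markers. Exceptions are stated, and some genes are not reported here. Promoters were RefSeq's on GRCm38.p6, searched on both strands before each start. Replicate numbers did not pair the libraries: correlations of deviations between same-numbered libraries ran from -0.487 to 0.58.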

Additional observations from a re-analysis of the deposited data

Results flagged for a closer look

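In 13 of the 298 groups of 4 libraries examined over named genes and summed gene lists, 1 library stood far from the other 3. This share is not above the about 1 in 20 that chance gives. Wild type replicate 3 was the single wild type library high in Xist (1060 CPM, and 1060 CPM for the sex-linked list) and low in the Y-linked Ddx3y (0.068 CPM). That library also stood high in the summed interferon list (370 CPM) and in the potassium channel gene Kcnb2 (10.2 CPM). Wild type replicate 1 stood apart in the AMPA receptor subunit Gria1 (782 CPM), the potassium channel Kcna6 (120 CPM) and Unc13d (12.2 CPM). Armcx3 was lowest in wild type replicate 2 (82.2 CPM, in a very narrow group), and Calb1 was lowest in wild type replicate 4 (1190 CPM). Among knockin libraries, Bag3 was highest in replicate 2 (18.2 CPM), Plekhg4 highest in replicate 3 (10.2 CPM) and Cbln1 lowest in replicate 4 (434 CPM).

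Of the 115 named genes, edgeR's interaction test called a genotype difference that was not alike in cerebellum at 18 weeks and brainstem at 28 weeks for 58 against pons (21 more positive and 37 more negative in cerebellum) and for 55 against medulla (25 and 30). Those whose interaction is given in the comparison of regions are listed here. The interactions, cerebellum minus pons, were -3.38 for Myo15, -0.94 for Grm4, -0.48 for Slc1a3, 0.60 for Fa2h, 0.44 for Idi1, 0.36 for Vegfa, 0.91 for Calb2 and 2.08 for Fam163b. Those against medulla were -3.36 for Myo15, -0.79 for Grm4, -0.50 for Slc1a3, 0.42 for Fa2h, 1.40 for Calb2 and 2.45 for Fam163b.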

How the results depend on the processing

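With all 12 cerebellum libraries in the fit, 552 genes were called (133 higher, 419 lower), 550 of them also called in the 8-library fit; the cause was not tested. The 5 libraries low in Xist gave 1654 (564 higher, 1090 lower), with fewer libraries, and a term for Slc17a6, added after seeing the data, gave 1073 (381 higher, 692 lower). Leaving out each library in turn gave 2211 to 3223 calls, with 779 to 1379 higher and 1417 to 1844 lower. The count of rises was 779 without wild type replicate 2, 794 without knockin replicate 1, 839 without wild type replicate 4 and 915 without wild type replicate 1. The Atxn1 difference ran from 9.49 to 12.9 CPM, and its exact permutation p was 0.0571 without any 1 knockin library. DESeq2 called 2018 genes in the pons interaction, and leaving out 1 library gave 906 (without pons knockin replicate 1) to 2445 (without pons knockin replicate 4). In the medulla interaction that range was 732 (without cerebellum knockin replicate 4) to 1421. A replicate block, for numbers that did not pair the libraries, called 3613 genes in the main comparison and 701 in the medulla interaction. Ddx3y, at a log2 difference of -0.28 between groups of unequal sex, turned to 0.31 with a term for Xist, 0.30 in the low-Xist libraries and 0.32 with that term and without knockin replicate 4. Of 100 named genes that were called, 38 were lost with all 12 libraries and 8 in some fit without 1 library. The largest rises and falls were named only if called with all 12 libraries, so the named genes are a favoured selection. Over all genes, 550 of the 3161 calls were kept in that fit. The number of libraries, 4 a group, limits the precision, and the number of fragments behind the counts is not known.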
